A study of Homo sapiens with 4 samples.

Results

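Reference mRNAs are transcripts whose level is assumed to stay level between samples, so that other transcripts can be expressed relative to them. The 8 genes described here are HPRT1, ACTB, B2M, TBP, GUSB, PPIA, TFRC and YWHAZ, a set in common use for reverse transcription and quantitative PCR (RT-qPCR). They were chosen by name and each was found once among the 63677 genes of the deposited table. All 8 were among the 14645 genes with enough counts to be tested.

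RNA came from nuclei of HCT116 cells, an established human colorectal carcinoma line, collected 48 h after transfection of the plasmid pcDNA3.1-ORC1-3xFLAG. ORC1 is the largest subunit of the complex that marks DNA replication origins, and here it was an overexpressed, FLAG-tagged protein beside the cells' own ORC1. The 2 IP libraries hold RNA recovered with an anti-FLAG antibody without crosslinking, and the 2 Input libraries hold RNA of the nuclear lysates they were taken from, all from transfected, asynchronous cells. A control antibody or untransfected cells were not analysed here, so RNA held by beads or antibody was not measured apart from RNA held by ORC1. For its RIP of the cells' own ORC1, the paper reports that control IgG yielded no detectable RNA.

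An IP to Input ratio can be read from sequencing by scaling whole libraries, or relative to 1 transcript taken as level, as is usual in RT-qPCR. Both readings agree only when the reference itself is recovered like the average RNA. The members differ in role. HPRT1 salvages purine bases for nucleotide synthesis and GUSB is a lysosomal glycosidase. ACTB is a cytoplasmic actin, B2M is the light chain of MHC class I molecules, and TFRC is the transferrin receptor that takes up iron. PPIA is a cyclophilin that isomerises proline bonds, TBP binds the TATA box, and YWHAZ is a 14-3-3 adaptor protein. In the study's methods HPRT1 or GAPDH served as RT-qPCR reference for total and cytoplasmic RNA and the nuclear long noncoding RNA MALAT1 for nuclear RNA, while RIP-qPCR was expressed relative to Input. GAPDH and MALAT1 are therefore given beside the members.

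The primer pair that the study used for HPRT is shown because it sets which stretch of the transcript such a reference reads. In the amplicon, capitals mark the primer sites and lower case the bases between them, on the strand of the mRNA.
HPRT forward primer: TGACACTGGCAAAACAATGC
HPRT reverse primer: GGTCCTTTTCACCAGCAAGC
HPRT1 amplicon: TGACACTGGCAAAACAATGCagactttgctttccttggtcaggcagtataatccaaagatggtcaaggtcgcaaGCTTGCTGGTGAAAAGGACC
The amplicon of 94 bases covered positions 558 to 651 of the canonical HPRT1 transcript of 1395 bases and lay inside its coding sequence, positions 148 to 801. The forward site was in exon 6 of 9 and the reverse site crossed the junction of exons 6 and 7. On GRCh38 the product started and ended at chrX:134493516-134498408 on the plus strand, with intron 6 in between. Both sites were found together in 3 annotated transcripts, all of HPRT1, and the forward site alone was found also in the pseudogene HPRT1P3. The 3 annotated HPRT1 pseudogenes had 0 counts in all 4 libraries.

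Replicate 1 gave 27483148 counts in the IP and 14677002 in the Input library, and replicate 2 gave 20280445 and 9213877. Of the markers of an epithelial colorectal line, EPCAM lay between 98.2 and 192 counts relative to the library total (CPM) and KRT8 between 971 and 2051 CPM over the 4 libraries, with KRT18 and CDH1 also present, whereas VIL1, a marker of the intestinal brush border, had 0 to 5 counts. The blood, endothelial and liver markers PTPRC, PECAM1 and ALB had at most 4 counts in any library. CPM were scaled by TMM (trimmed mean of M values), which sets the typical gene level between libraries. A gene was called enriched or depleted when its log2 fold change of IP over Input was beyond 1 in size and its adjusted p in the edgeR quasi-likelihood test was below 0.05. By that rule 10.5% of all tested genes were enriched and 8.3% depleted, and 13.4% and 13.4% with the replicate number as a block. The labels give Input and IP of the same number to the same RIP, with no word on separate cultures, so p-values measure the spread between these libraries only.

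Of the 8 reference mRNAs, HPRT1, B2M and PPIA were depleted in the IP, by 4.29-fold, 5.19-fold and 3.79-fold, and none was enriched. ACTB, TBP, GUSB and TFRC had log2 fold changes between -0.19 and 0.40 and did not pass the test. YWHAZ lay between them at -0.83. The 3 depleted members make 37.5% of the set, beside 8.3% of all tested genes, and the median log2 fold change of all 8 members was -0.51 against 0.01 for all tested genes. In the edgeR fit 0 members rose, also at an unadjusted p below 0.05, and DESeq2 and limma voom called 0 enriched and 3 depleted as well.

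HPRT1 (ENSG00000165704, chrX:134460165-134520513, plus strand) had 116 and 99 counts in the IP and 453 and 258 in the Input libraries. Scaled, these were 5.56 and 5.62 CPM in the IP and 25.9 and 22.0 CPM in the Input. Both IP libraries were below both Input libraries, and the 2 IP values were nearly the same. The log2 fold change was -2.10 ± 0.24 (SE, 2 libraries a group; edgeR, adjusted p = 0.0105), which put HPRT1 at percentile 2.53 of all tested genes from the lowest. The replicate log2 ratios were -2.12 and -1.88. Their counting error alone was 0.15 and 0.17 on the log2 scale, the largest among the 8 members, since HPRT1 had the fewest counts in the IP.

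GUSB (ENSG00000169919, chr7:65960684-65982215, minus strand), the other metabolic enzyme, had 18.3 and 20.7 CPM in the IP and 18.8 and 19.6 CPM in the Input. The groups overlapped, with the lowest and the highest value both in the IP. The log2 fold change was 0.02 ± 0.22 (edgeR, adjusted p = 0.956), and the replicate ratios were -0.04 and 0.08. Its sign turned under 7 of 12 alternatives, with values from -0.57 to 0.15. GUSB also has the most counts in near copies relative to its own. Of 18 annotated GUSB pseudogenes, 7 had a count, and together they reached 15.8% to 38.2% of the GUSB count, with GUSBP18 the highest. How reads with several alignments were counted is not stated, so the GUSB level is less certain than that of the others.

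The cyclophilin PPIA (ENSG00000196262, chr7:44796680-44824564, plus strand) had 142 and 147 CPM in the IP and 628 and 470 CPM in the Input. All IP values were below all Input values. The log2 fold change was -1.92 ± 0.27 (edgeR, adjusted p = 0.0107), with replicate ratios of -2.14 and -1.67. PPIA has 89 annotated pseudogenes, of which 35 had a count, and their sum was 0.582% to 2.18% of the PPIA count.

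The 2 members that encode cell surface proteins had different ratios. B2M (ENSG00000166710, chr15:44711358-44718851, plus strand) had 48.7 and 68.2 CPM in the IP and 296.5 and 309.9 CPM in the Input. Its log2 fold change of -2.38 ± 0.27 (edgeR, adjusted p = 0.0105) was the lowest of the 8, at percentile 1.82 of all tested genes, and the replicate ratios were -2.59 and -2.18. The transferrin receptor TFRC (ENSG00000072274, chr3:196012511-196082153, minus strand) had 920 and 462 CPM in the IP and 591 and 675 CPM in the Input. The IP values of TFRC lay on either side of both Input values. Its log2 fold change was 0.13 ± 0.37 (edgeR, adjusted p = 0.830), but its replicate ratios were 0.64 and -0.55. The gap between its replicate ratios was larger than that of 97.4% of tested genes, beside 22.2% to 74.7% for the other 7 members. Without IP replicate 1 the TFRC value was -0.41 and without IP replicate 2 it was 0.59.

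ACTB (ENSG00000075624, chr7:5526409-5563902, minus strand) was the most abundant member, with 3639 and 2714 CPM in the IP and 2489 and 2319 CPM in the Input. Both IP values were above both Input values, but the log2 fold change of 0.40 ± 0.30 did not pass the edgeR test (adjusted p = 0.372). The replicate ratios were 0.55 and 0.23. With library size only, the ACTB value was -0.21, below 0, while the median of all genes shifted by -0.60. Counts of the 11 ACTB pseudogenes in the table were at most 0.0442% of the ACTB count.

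TBP (ENSG00000112592, chr6:170554302-170572870, plus strand), the TATA box binding factor, had 21.4 and 23.8 CPM in the IP and 27.9 and 23.7 CPM in the Input. The groups overlapped narrowly. The log2 fold change was -0.19 ± 0.22 (edgeR, adjusted p = 0.566), with replicate ratios of -0.37 and 0.00.

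YWHAZ (ENSG00000164924, chr8:100916523-100953388, minus strand), the 14-3-3 adaptor, had 501 and 439 CPM in the IP and 922 and 748 CPM in the Input. Both IP values were below both Input values. Its log2 fold change of -0.83 ± 0.27 did not pass (edgeR, adjusted p = 0.0648), with replicate ratios of -0.88 and -0.77. YWHAZ is the member whose call rests on the settings. With the replicate block the adjusted p was 0.000837 at nearly the same fold change, which is under 1 in size, and YWHAZ was called depleted with library size only (-1.43, adjusted p = 0.00642) and without Input replicate 2 (-1.12, adjusted p = 0.0217).

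The references of the study's RT-qPCR outside the set were not called. GAPDH, a glycolytic enzyme, had 2819 and 2363 CPM in the IP and 3440 and 3310 CPM in the Input, with a log2 fold change of -0.38 ± 0.29 (edgeR, adjusted p = 0.377). MALAT1 had 350 and 1007 CPM in the IP and 756 and 4075 CPM in the Input, so that each group spread widely between replicates and the groups overlapped. Its log2 fold change was -1.83 ± 0.81 (edgeR, adjusted p = 0.142). The replicate ratios of MALAT1 were -1.11 and -2.02, both below 0. With the replicate block MALAT1 was called depleted, at -1.57 (edgeR, adjusted p = 6.02e-05), and it was also called with no count filter (-1.74), without IP replicate 2 (-2.72) and without Input replicate 1 (-2.54).

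**Figure D1:**
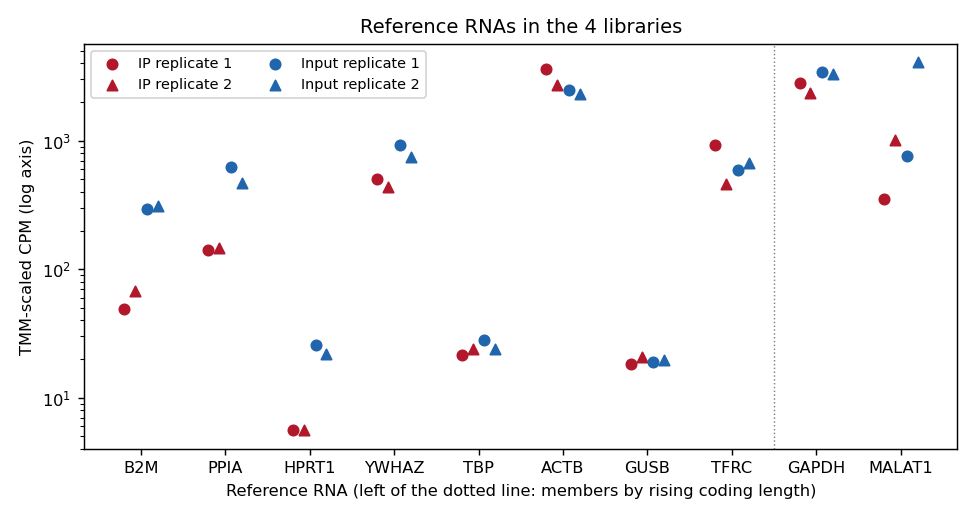
TMM-scaled CPM (log axis) of the 8 members, ordered by coding length, and of GAPDH and MALAT1, 1 point a library. For B2M, PPIA, HPRT1 and YWHAZ the IP points (red) all lie below the Input points (blue), while for TFRC the Input points lie between the IP points and for MALAT1 the replicates of each group stand apart.

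**Figure D2:**
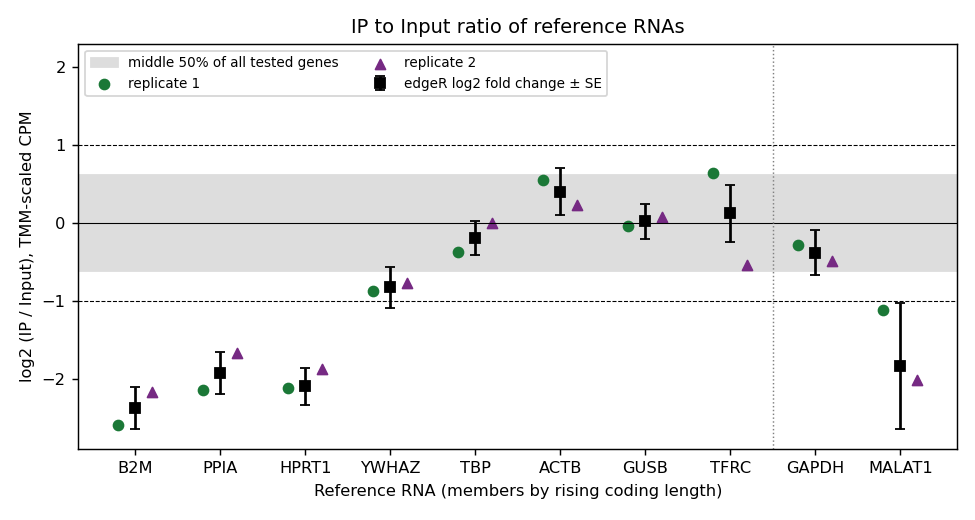
Log2 ratio of IP to Input for each replicate (circles and triangles) and the edgeR log2 fold change ± SE (squares), with the middle 50% of all tested genes shaded (-0.62 to 0.62) and dashed lines at 1 and -1. HPRT1, B2M and PPIA lie below -1.6 in both replicates, and the TFRC replicates lie on opposite sides of 0.

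Levels of different genes can be compared only per length, so CPM were divided by the length of the canonical transcript in kilobases (kb). In the Input the order per kb was ACTB (1373 and 1280 CPM per kb), B2M (314 and 329), PPIA (281 and 210), YWHAZ (184 and 149), TFRC (118 and 135), HPRT1 (18.6 and 15.8), TBP (15.0 and 12.8) and GUSB (8.55 and 8.89). No neighbours in that order overlapped between replicates, though HPRT1 and TBP were close. Counts are per gene, and the joined annotated exons were longer, at 3121 bases in B2M, 6780 in PPIA and 8557 in YWHAZ. Their canonical transcripts had 943, 2237 and 5011 bases. The order between genes is that for the canonical length, and other lengths were not tried. In the IP the order per kb was ACTB (2008 and 1498 CPM per kb), TFRC (184 and 92.2), YWHAZ (100 and 87.6), PPIA (63.5 and 65.9), B2M (51.6 and 72.3), TBP (11.5 and 12.8), GUSB (8.30 and 9.39) and HPRT1 (3.98 and 4.03). In that order TFRC overlapped YWHAZ and PPIA overlapped B2M. By this length B2M was the member next to ACTB in the Input but not in the IP. HPRT1, above TBP and GUSB in the Input, was below both in the IP. For the level of a gene within these bulk libraries, the share of cells that express it and its RNA per cell cannot be told apart. The change of order was between IP and Input of the same lysates.

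The difference between a pair of members does not depend on how libraries are scaled, and it is the error made when one stands in for the other. Each of the 28 pairs was tested by edgeR in fits scaled to either member, with p adjusted over all genes of each fit. Of the 28 pairs, 14 were called in both fits and 2 more, TFRC with HPRT1 and TFRC with PPIA, in 1 of them. With the replicate block the counts were 13 in both and 16 in either, and the pair of B2M and TFRC was called in 1 fit only. For comparison, the fits scaled to HPRT1, B2M and PPIA without the block called 80.9%, 89.3% and 75.8% of all tested genes enriched. The 14 pairs join each of HPRT1, B2M and PPIA with each of ACTB, TBP, GUSB and YWHAZ, together with B2M and TFRC, and ACTB and YWHAZ.

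In the fit scaled to HPRT1, ACTB was higher in the IP by 2.50 ± 0.37 on the log2 scale (edgeR, adjusted p = 1.19e-05), or 5.65-fold. The replicate differences were 2.67 and 2.11. In the fit scaled to ACTB, HPRT1 was at -2.47 ± 0.34 (edgeR, adjusted p = 0.00214), so the adjusted p of a pair does depend on the fit. GUSB was higher than HPRT1 by 2.11 ± 0.29 and TBP by 1.91 ± 0.28. YWHAZ was higher than HPRT1 by 1.28 ± 0.30 (edgeR, adjusted p = 0.00104). In the fit scaled to YWHAZ, HPRT1 was at -1.27 ± 0.28 (edgeR, adjusted p = 0.00819). PPIA differed from HPRT1 by 0.18 ± 0.28 and B2M by -0.29 ± 0.28, and neither passed (edgeR, adjusted p = 0.538 and 0.343). No pair among the 3 depleted members was called. The largest such gap was in the fit scaled to PPIA, with B2M at -0.49 ± 0.35 relative to PPIA. The replicate differences of that pair were -0.46 and -0.51, closer to each other than the SE of the fit without the block. The 4 uncalled members apart from YWHAZ differed from each other by at most 0.60 on the log2 scale in any fit, and none of their pairs was called.

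Genes whose 4 scaled values run most like those of HPRT1, by Euclidean distance of log2 CPM centred on each gene over 10400 genes with a symbol and at least 5 CPM on average, were LITAF (distance 0.0366), FKBP1A (0.0479), TMEM14B (0.0728), OSTC (0.149) and RBM7 (0.151). Their log2 fold changes lay between -2.12 and -2.02. No other member was among them.

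To show what each member would do as reference, the 4 libraries were scaled to its count, and the same 14645 genes were tested by edgeR with the same rule. Scaled to HPRT1, 11849 genes (80.9%) were enriched and 41 (0.28%) depleted, and the median log2 fold change of all genes was 2.09. Scaled to B2M, 89.3% were enriched and 0.341% depleted, and scaled to PPIA, 75.8% and 0.485%. With any of these 3 depleted mRNAs taken as level, most tested genes counted as enriched.

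Scaled to YWHAZ, 34.5% of genes were enriched and 1.5% depleted. Scaled to TBP, the shares were 16.3% and 6.96%, and scaled to GUSB 10.5% and 9.21%, the nearest of the 8 to the 10.5% and 8.3% under TMM. Scaled to ACTB the balance turned the other way, with 4.56% enriched and 14.3% depleted. GAPDH gave 20% enriched and 3.69% depleted.

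With TFRC or MALAT1 as reference, edgeR gave few calls without the replicate block. Scaled to TFRC, edgeR called 91 genes enriched (0.621%) and 99 depleted (0.676%), and the coefficient of biological variation rose from 0.261 under TMM to 0.435. Scaled to TFRC with the replicate block, edgeR called 0 enriched and 8 depleted, while an unadjusted p below 0.05 was found for 198 genes up and 366 down. Without the block, 533 and 354 were called by DESeq2, and 346 and 284 by limma voom. Scaled to MALAT1, edgeR called 0 genes enriched and 0 depleted (0% in either direction), with 152 genes at an unadjusted p below 0.05 and a coefficient of variation of 0.856. For MALAT1, 1 and 3 genes were called by DESeq2, 4 and 1 by limma voom, and 6644 and 52 by edgeR with the replicate block. The MALAT1 counts therefore depended on whether the replicates were treated as pairs.

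Scaled to the geometric mean of the 8 members, 37.9% of genes were enriched and 1.6% depleted. The mean had replicate ratios of -0.87 and -0.84, closer to each other than those of any single member. The replicate block raised the calls from 5552 enriched and 235 depleted to 6451 and 458. Scaling to ACTB with the block gave 885 enriched and 3539 depleted genes, and scaling to HPRT1 12714 and 97.

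**Figure D3:**
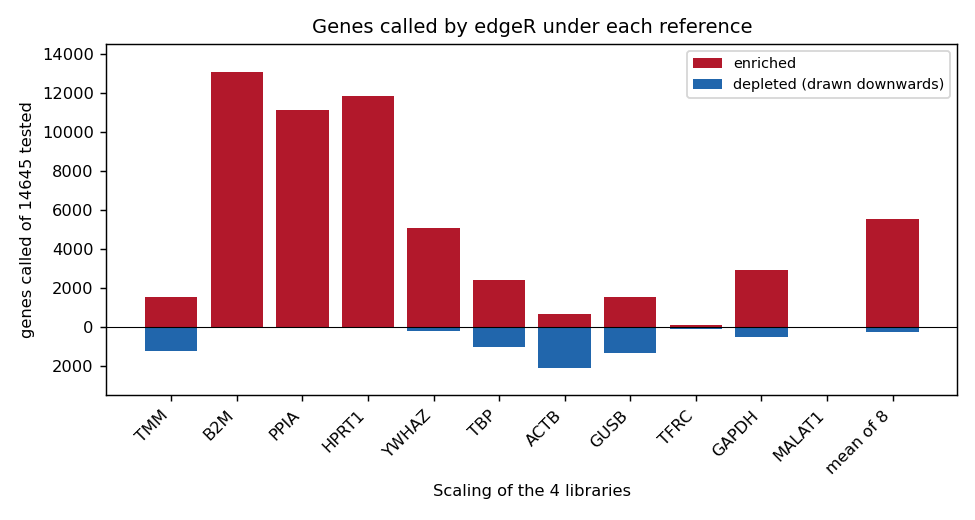
Number of genes called enriched (red, upwards) and depleted (blue, drawn downwards) by edgeR of 14645 tested, for TMM scaling and for scaling to each member, GAPDH, MALAT1 and the geometric mean of the 8. Scaling to B2M, PPIA or HPRT1 called 11102 to 13084 genes enriched, GUSB gave bars like those of TMM, and MALAT1 gave none.

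The same shift was followed in 19 RNAs for which the study designed cDNA primers. Some of these RNAs were picked by the study for their binding to ORC1 in its own data, so the list's direction is no independent evidence. Under TMM edgeR called 15 of the 19 enriched (78.9%, beside 10.5% of all tested genes) and 0 depleted (beside 8.3%). DESeq2 and limma voom also called 0 depleted, and 3 were down at an unadjusted p below 0.05 in edgeR. The 4 not called were the kinase genes CDC7 (-0.86) and CDK2 (-0.90), the origin recognition subunit gene ORC2 (-0.52) and the noncoding LINC00174 (0.28).

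CDK2, a kinase that drives S phase, shows the range. It had 56.1 and 40.3 CPM in the IP and 103.9 and 76.1 CPM in the Input, so both IP values were below both Input values. Relative to HPRT1 it was enriched, by 1.21 on the log2 scale (edgeR, adjusted p = 0.000876), relative to YWHAZ it was level at -0.08 (adjusted p = 0.806), and relative to ACTB it was depleted, by -1.30 (adjusted p = 0.00550). CDC7, the kinase that fires origins, was 1.26 relative to HPRT1 (edgeR, adjusted p = 0.000600) and -1.23 relative to ACTB (adjusted p = 0.0152). Both genes thus changed call from enriched to depleted with the reference alone, though near the threshold. The replicate differences of CDK2 were 1.24 and 0.97 from HPRT1, and -1.43 and -1.14 from ACTB. Those of CDC7 were 1.05 and 1.32 from HPRT1, and -1.62 and -0.78 from ACTB. The fits take the count of the reference as exact.

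CEP95, a centrosomal protein gene, had 234 and 249 CPM in the IP and 61.9 and 52.5 CPM in the Input, with a log2 fold change of 2.08 under TMM. It was called enriched with each of the 8 members as reference, from 1.71 with ACTB to 4.48 with B2M, and 4.18 with HPRT1, but the call with TFRC (adjusted p = 0.0427 in edgeR) was lost with the replicate block, where no gene was enriched. On a linear scale those values run from 3.28-fold to 22.4-fold. With MALAT1 as reference it was 3.28 and not called (edgeR, adjusted p = 0.837).

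Counted over the list, edgeR called 19 of 19 RNAs enriched with HPRT1, B2M or PPIA as reference. Of all tested genes 80.9%, 89.3% and 75.8% were enriched there, so 19 of 19 is not read as a result about these RNAs. The count was 15 with YWHAZ, TBP, GUSB, GAPDH or the mean of the 8, beside 34.5%, 16.3%, 10.5%, 20% and 37.9% of all genes. With ACTB 13 were enriched and 2 depleted, beside 4.56% and 14.3%. With TFRC 8 were enriched, beside 0.621%, and with MALAT1 0, beside 0%. With the replicate block the counts were 0 for TFRC and 16 for MALAT1, beside 0% and 45.4% of all genes. ACTB gave 14, beside 6.04%, and YWHAZ and the mean of the 8 gave 16, beside 41.9% and 44%. The counts with the other references did not move. Without a test, RNAs more than 1 above the reference on the log2 scale in both replicates were also counted. They were 19 with B2M and 18 with HPRT1 or PPIA, beside 91.1%, 83.8% and 78% of all tested genes. MALAT1 gave 16, beside 57.1%. YWHAZ, TBP, GUSB or GAPDH gave 15, beside 34%, 10.9%, 8.19% and 18.9%. ACTB or TFRC gave 13, beside 3.26% and 2.87%. The HPRT1 count of 18 was 19 with a pseudocount of 0.1 CPM and 17 with 1 CPM in place of 0.5 CPM.

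**Figure D4:**
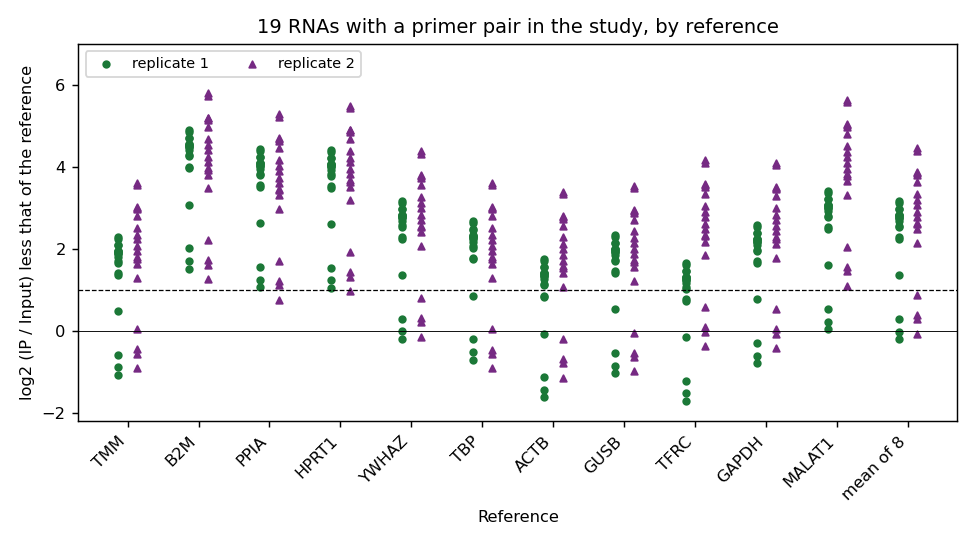
Log2 ratio of IP to Input less that of the reference, for 19 RNAs with a primer pair in the study, 1 point an RNA in replicate 1 (circles) and replicate 2 (triangles); the dashed line marks 1. The whole set moves up with B2M, PPIA and HPRT1. There 18 or 19 RNAs lie above 1 in both replicates, beside 78% to 91.1% of all tested genes. The 3 lowest mRNAs, CDC7, CDK2 and ORC2, lie on either side of 0 depending on the reference.

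The log2 fold changes of the members ran with their coding length. Sorted by the coding sequence of the canonical transcript without the stop codon, B2M had 357 bases, PPIA 495, HPRT1 654, YWHAZ 735, TBP 1017, ACTB 1125, GUSB 1953 and TFRC 2280. The 4 shortest had the 4 lowest log2 fold changes, with a median of -2.01 against 0.07 for the 4 longest, and the groups did not overlap. Spearman's rho between coding length and log2 fold change over the 8 members was 0.90, with 0.98 and 0.81 in replicates 1 and 2. With the length of the whole transcript it was 0.45, since YWHAZ and PPIA have long noncoding parts of 4276 and 1742 bases. The 8 points share the same 4 libraries, and the correlation is a description.

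All tested protein-coding genes ran the same way, with rho = 0.59 over 12542 genes, which are not independent replicates. Below 900 bases, a boundary set in the gap between YWHAZ and TBP after their values were seen, 24.0% of 3155 genes were depleted, and above it 2.96% of 9387. In 10 classes of rising coding length, B2M and PPIA lay in the shortest, where the median log2 fold change was -0.81 and 34.7% of genes were depleted. HPRT1 and YWHAZ lay in the second, with a median of -0.53 and 18.7% depleted. All 4 were below the median of their class. B2M and PPIA were also below the middle 50% of theirs (-1.37 to -0.21). HPRT1 was below that of the second class (-0.99 to -0.003), and YWHAZ was within it. TBP and ACTB lay in the fourth (median -0.20), GUSB in the seventh (0.27) and TFRC in the eighth (0.45), so GUSB and TFRC were below the median of their class but within its middle 50% (-0.14 to 0.74 and 0.04 to 0.89), and ACTB was above its class's middle 50% (-0.61 to 0.25). Whether length or another property of these mRNAs bears on their recovery was not tested.

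A list of 38 further tested mRNAs used as references gave rho = 0.63 between coding length and log2 fold change. Of the 38, 6 were enriched (15.8%) and 5 depleted (13.2%), beside 10.5% and 8.3% of all tested genes. Their median log2 fold change was -0.01. The enriched were led by POLR2A, the largest subunit of RNA polymerase II, at 2.50 ± 0.33 and HSP90AB1, a chaperone, at 1.91 ± 0.36, and included VCP, PES1 and PSMC4. The depleted were MRPL19 (-1.67 ± 0.35), EMC7 (-1.66 ± 0.25), the ribosomal stalk gene RPLP0 (-1.59 ± 0.29), VPS29 (-1.51 ± 0.29) and PSMB2 (-1.09 ± 0.27). Below 900 bases 4 of 16 were depleted and 0 enriched, and above 1 of 22 was depleted and 6 enriched. The values nearest to 0, within 0.16, were those of GPI (0.05 ± 0.26), ALDOA (-0.07 ± 0.27) and RPL37A (-0.16 ± 0.26). With its coding sequence of 276 bases RPL37A was shorter than all 8 members and yet near 0.

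**Figure D5:**
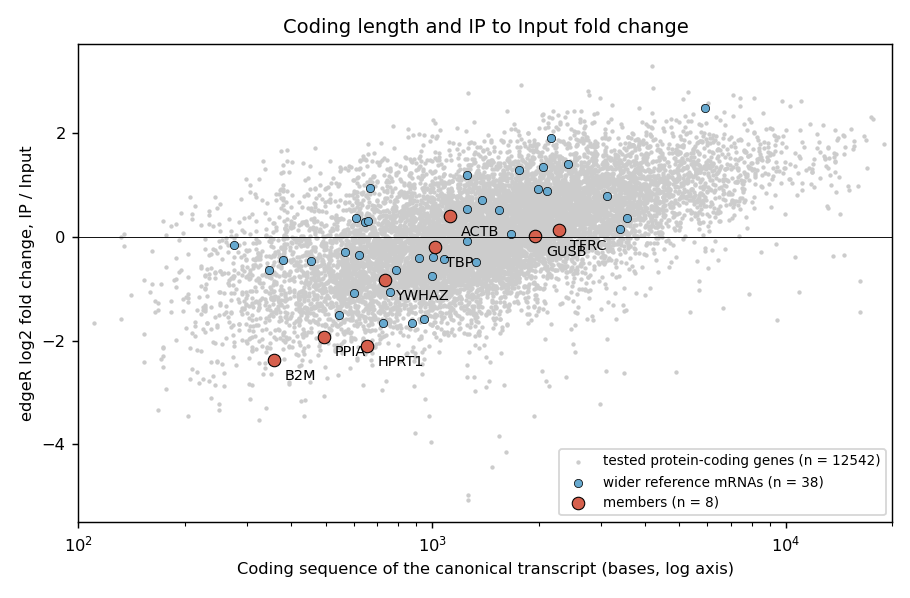
Coding sequence of the canonical transcript in bases (log axis) against the edgeR log2 fold change of IP over Input, for 12542 tested protein-coding genes (grey), 38 further reference mRNAs (blue) and the 8 members (red, named). The members rise from B2M at 357 bases and -2.38 to TFRC at 2280 bases and 0.13, inside a cloud that rises with length.

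The GC content of the canonical transcript also ran with the log2 fold change of the members. It was 39.1% in B2M, 39.6% in YWHAZ, 40.4% in HPRT1, 40.9% in TFRC, 46.0% in PPIA, 46.6% in TBP, 55.2% in ACTB and 55.5% in GUSB. Spearman's rho over the 8 was 0.71, with 0.60 and 0.86 in replicates 1 and 2, beside 0.36 over the 38 further reference mRNAs and 0.07 over the 12542 protein-coding genes. Input level had a rho of 0.38 with the log2 fold change over the 8. The letters GAAGAA were searched on the sense strand of the canonical transcript, where 79.6% of 14265 tested genes hold them. They were found in B2M (1 match), TBP (2), GUSB (1) and TFRC (3) and in neither HPRT1, ACTB, PPIA nor YWHAZ. A match is not a binding site. The only member whose exons share bases with another gene was TFRC, where 191 bases (1.10%) lie opposite a gene that the table does not list.

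Genes related to each member by function or family are given by list. Of all tested genes 10.5% were enriched and 8.3% depleted, and a share near those is not read as a result about a list. Of 15 enzymes of purine salvage and nucleoside metabolism, 0 were enriched and 2 depleted (13.3%). The 2 were PRPS1 at -1.19 ± 0.25, which makes the ribose phosphate donor of the HPRT1 reaction, and DGUOK at -1.004 ± 0.27. With the replicate block DGUOK, at -0.98, was under the fold threshold, which left 1 depleted, and limma voom also called 1 and DESeq2 2. APRT, the adenine counterpart of HPRT1, had 70.0 and 52.8 CPM in the IP and 100.6 and 80.9 CPM in the Input, with a log2 fold change of -0.56 ± 0.25 (edgeR, adjusted p = 0.148). At an unadjusted p below 0.05, 4 of the 15 were up, and DESeq2 and limma voom called 0 enriched.

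Of 11 genes of MHC class I assembly, 1 was enriched and 1 depleted, 9.09% each, near the 10.5% and 8.3% of all tested genes. In that order they were the disulfide isomerase PDIA3 of the loading complex (1.37 ± 0.26) and its tapasin partner TAPBP (-1.02 ± 0.21). With the replicate block, DESeq2 or limma voom, 2 were enriched, with the block adding the chaperone CALR (1.31 ± 0.39, adjusted p = 0.0520 in edgeR without the block).

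Of 15 cyclophilins other than PPIA, 1 was enriched and 1 depleted, 6.67% each, beside 10.5% and 8.3% of all tested genes. The enriched gene was RANBP2 (1.64 ± 0.26), a large nuclear pore protein with a cyclophilin domain. The depleted gene was PPIL1 (-1.73 ± 0.32), a small spliceosomal cyclophilin. Of 8 tested genes of iron uptake and storage, out of 11, 0 were enriched and 1 depleted (12.5%, beside 8.3% of all tested genes). That gene was the ferritin light chain FTL (-1.32 ± 0.35). At an unadjusted p below 0.05 0 of the 8 were up, and DESeq2 and limma voom called 0 enriched.

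Among 18 actins and actin-binding partners, 4 were enriched (22.2%, beside 10.5% of all tested genes) and 0 depleted (beside 8.3%). The enriched were led by TLN1 (2.19 ± 0.29) and ACTN4 (1.42 ± 0.27), which link actin to adhesions and to itself, with ACTN1 and VCL. At an unadjusted p below 0.05 1 of the 18 was down, and DESeq2 and limma voom called 0 depleted. ACTG1, the other cytoplasmic actin, had 6626 and 7699 CPM in the IP and 5404 and 6794 CPM in the Input, with overlapping groups and a log2 fold change of 0.23 ± 0.32.

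Of 17 tested TBP partners, 5 were enriched (29.4%, beside 10.5% of all tested genes) and 0 depleted (beside 8.3%). The median log2 fold change of the 17 was 0.86. The enriched were led by TAF1, the largest TFIID subunit (1.82 ± 0.23), and TAF7 (1.62 ± 0.26), with BTAF1, BRF1 and TAF1B. At an unadjusted p below 0.05 2 of the 17 were down, and DESeq2 and limma voom called 0 depleted. TBP itself was at -0.19.

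Of 17 lysosomal hydrolases other than GUSB, 0 were enriched and 1 depleted (5.88%, beside 8.3% of all tested genes). That gene was the iduronate sulfatase IDS (-1.32 ± 0.26). At an unadjusted p below 0.05 0 of the 17 were up, and DESeq2 and limma voom called 0 enriched. The 6 other 14-3-3 genes gave 0 calls in edgeR, with 2 up and 0 down at an unadjusted p below 0.05. YWHAE (1.13 ± 0.36, adjusted p = 0.0601 in edgeR) was called enriched with the replicate block, and DESeq2 called 1 of the 6 enriched and limma voom 0. YWHAZ, at -0.83, was below all 6.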

How the data were processed

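The deposited values are raw read counts per gene, made by the authors by trimming with Trimmomatic, alignment with STAR to hg19, removal of reads on GL contigs and counting with featureCounts against an Ensembl annotation. Not stated are the annotation release, the strand setting and how multi-mapped reads were treated. Libraries were rRNA-depleted, DNase-treated and carry no spike-in or molecular identifiers, so counting errors cover sampling of reads only, and an RNA recovered less cannot be told apart from a larger share taken by other RNAs.

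The quasi-likelihood test of edgeR 4.0.16 in R 4.3.3 was run on the counts after filterByExpr, with TMM, robust dispersions and no term but group, with Benjamini-Hochberg adjustment over 14645 genes. The SE comes from the fold change and its F statistic. For a reference, each library's effective size was set to the reference's count, or to the geometric mean of the 8 counts. Replicate ratios used scaled CPM with a pseudocount of 0.5. Pairing follows the labels, and deviations of same-numbered libraries from their group means correlated (Pearson r = 0.64 across genes). Alternatives were DESeq2 1.42.0, voom of limma 3.58.1, a replicate block, other scalings (library size only, RLE, upper quartile), other filters (none, or 1 CPM in at least 2 libraries) and leaving out each library. The fits were tested on simulated data.

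Identifiers of 52181 of 63677 genes matched GENCODE v44 on GRCh38, another build than that of the counts, which gave all lengths, positions and transcript sequences. TAF9 was not matched. Primers came from the study's supplement. Named genes were the members, GAPDH, MALAT1, the RNAs with cDNA primers, the 5 profiles nearest to HPRT1, the pseudogenes with most counts, and of each list at most the 2 highest and 2 lowest called. Others (VCP, PES1, PSMC4, EMC7, RPLP0, VPS29, the genes within 0.16 of 0, APRT, ACTG1, CALR, ACTN1, VCL, BTAF1, BRF1, TAF1B and YWHAE) were named after their values were seen. The members and lists were chosen with earlier results of these data known. Some genes of the lists are not reported here.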

Additional observations from a re-analysis of the deposited data

How the results depend on the processing

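The calls of HPRT1, B2M and PPIA as depleted and of no member as enriched held under all 12 alternatives, and the count of depleted members was 3, or 4 with YWHAZ. The median of all genes moved by -0.60 with library size only, by -0.17 with upper quartile and by -0.15 without Input replicate 2. Over all genes, library size only gave 379 enriched and 3239 depleted, and the replicate block 1957 depleted. ACTB turned to -0.21 with library size only. TFRC turned to -0.51 with library size only and -0.074 with upper quartile, and ran from -0.41 to 0.59 when 1 library was left out. GUSB turned to -0.01 with RLE, DESeq2 and the 1 CPM filter (-0.0052, -0.0052 and -0.0101), to -0.57 with library size only and to -0.14 with upper quartile, and ran from -0.10 to 0.15 when 1 library was left out. Scaled to HPRT1, depleted genes numbered 97 with the replicate block, 23 with limma voom and 21 to 103 when 1 library was left out, against 41. Scaled to the mean of the 8, the replicate block gave 458 depleted. In fits that left out 1 library, the lone library of its group is assumed to vary like the other group. The replicate block changed no call of a member. With 99 to 453 counts, HPRT1 has the largest read-counting error of the members, while TFRC has the largest SE and the widest gap between replicates.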
